A study of Homo sapiens with 8 samples.

Results

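The miRNA response to luteolin plus gefitinib was examined in PC-3, a much used human cell line that was derived from a prostate cancer, by comparison with cells given the solvent alone. The comparison used 4 of the 8 arrays of the study, namely the 2 arrays of cells that received both drugs and the 2 arrays of cells that received DMSO only, and all 4 were chosen by the treatment in their labels. Both drugs were present at 60 µM for 24 h, and the solvent DMSO was present in every dish. The other 4 arrays held cells given 60 µM luteolin alone or 60 µM gefitinib alone for the same time. Luteolin is a flavonoid found in edible plants, and gefitinib inhibits the kinase of the epidermal growth factor receptor. The labels name the 2 arrays of each treatment biological replicates, and all p-values below measure the spread between these arrays of 1 cell line.

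A microRNA (miRNA) is cut from a hairpin in a longer transcript, first by Drosha in the nucleus and then by Dicer in the cytoplasm, which leaves a short duplex of both arms of the hairpin. One arm, the guide, is loaded into an Argonaute protein and lasts, whereas the other arm, the passenger, is mostly discarded and turns over quickly. The arms are named 5p and 3p after the end of the hairpin that they come from. A guide finds its target mRNAs mainly through its seed, bases 2 to 8 counted from its 5′ end, so that miRNAs with the same seed form a family with shared targets.

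The sequences of 7 hairpins are given first because their passenger arms were among those that fell in cells given both drugs, whereas no change was called for the guide. The guide stands above its passenger in each pair, the seed is in capitals, and the letters are those of RefSeq (GRCh38.p14).
miR-100-5p: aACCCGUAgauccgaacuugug
miR-100-3p: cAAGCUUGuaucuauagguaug
miR-29b-3p: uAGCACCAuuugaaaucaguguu
miR-29b-1-5p: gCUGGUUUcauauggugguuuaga
miR-15b-5p: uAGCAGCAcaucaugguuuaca
miR-15b-3p: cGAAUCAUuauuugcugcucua
miR-222-3p: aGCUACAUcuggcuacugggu
miR-222-5p: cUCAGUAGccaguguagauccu
miR-181a-5p: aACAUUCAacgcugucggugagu
miR-181a-3p: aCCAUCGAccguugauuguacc
let-7a-5p: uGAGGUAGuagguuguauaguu
let-7a-3p: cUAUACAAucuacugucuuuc
miR-182-5p: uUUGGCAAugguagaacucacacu
miR-182-3p: uGGUUCUAgacuugccaacua
Each arm has a seed of its own, so both arms of a hairpin have different sets of possible target sites. The hairpin of miR-100 lies at chr11:122152229-122152308 on the minus strand, inside the host transcript MIR100HG. The hairpin of miR-29b-1 lies at chr7:130877459-130877539 on the minus strand, next to that of miR-29a. The hairpin of miR-15b lies at chr3:160404588-160404685 on the plus strand, inside SMC4 and beside the hairpin of miR-16-2.

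The next 3 sequences are shown because miR-503-5p was the one member of the guide families examined that fell. It differs in its seed from the miR-15/16 family, to which it is related.
miR-503-5p: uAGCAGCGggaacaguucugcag
miR-15a-5p: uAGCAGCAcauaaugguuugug
miR-16-5p: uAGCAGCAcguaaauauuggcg
The last pair is shown because miR-5703 and miR-630 rose most among called miRNAs detected on all 4 arrays, and because their 3′ ends, in capitals here, hold the same 8 bases.
miR-630: aguauucuguaccaGGGAAGGU
miR-5703: aggagaagucGGGAAGGU
The hairpin of miR-630 lies at chr15:72587217-72587313 on the plus strand, inside ARIH1, and that of miR-5703 lies at chr2:227472132-227472187 on the plus strand.

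The arrays were 1-colour Agilent arrays for 1887 human miRNAs with 30 spots per miRNA, and the measured quantity was the total signal of a miRNA, a fluorescence intensity summed over its probes. The number of miRNAs that the scanner software reported as detected was 475 and 430 for DMSO and 447 and 395 for both drugs. Signals were scaled to the 75th percentile of the 365 miRNAs detected on all 8 arrays, and values are given on this scale in arbitrary units, so that the levels of different miRNAs are not comparable. The percentile before scaling was 73.5 and 68.9 on the DMSO arrays and 87.0 and 60.5 on the arrays with both drugs, of which the second was the lowest of the 8 arrays. Replicates correlated with r = 0.984 for DMSO and r = 0.991 for both drugs over the 365 miRNAs, which are not independent. No spot was saturated (0 spots). The number of arrays and, for dim miRNAs, the detection limit set the precision, since intensities give no count of molecules.

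Testing was done for the 480 miRNAs that were detected in duplicate in 1 treatment or more, and 58 changed in cells given both drugs, which is 12.1% of those tested, with 29 higher (6.04%) and 29 lower (6.04%). Here a change means a Benjamini-Hochberg adjusted p under 0.05 in limma, a linear model fitted across all 480 miRNAs and all 8 arrays. Of the 58, 39 differed over 2-fold. The 29 that fell were led by passenger arms of well known hairpins, with 16 such arms, and of the 29 that rose 23 were miRNAs numbered 1200 or above, a range with 217 of the 480 tested. The guide arms of the large conserved families, 77 miRNAs tested, held 1 call. The median log2 fold change of all 480 miRNAs was -0.16. An unadjusted p under 0.05 was found for 124 miRNAs. Both arrays with both drugs lay above both DMSO arrays for 98 miRNAs (20.4%) and below for 160 (33.3%), and the arrays of the others overlapped. Of the 58 called miRNAs, 0 overlapped.

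The 58 calls comprised 38 miRNAs detected on all 4 arrays, 7 detected on both arrays with both drugs but on no DMSO array, 11 detected on both DMSO arrays but on no array with both drugs, and 2 others. Among the 372 miRNAs detected on all 4 arrays, 21 were called higher and 17 lower (10.2%). The share of calls that were higher depended on the scaling and on the arrays fitted. It was 46 higher and 22 lower with the 75th percentile of all spots, 40 and 15 with quantile normalization, 25 and 16 with spike-in probes, 78 and 21 with human small-RNA control probes, and 51 and 28 with normexp correction plus quantile normalization, which changes the background and the scaling together. It was 31 and 51 with the mean signal per spot, and 10 and 21 with only the 4 compared arrays in the fit. The median of all miRNAs moved with these scalings from -0.16 to 0.02 with all spots, 0.01 with spike-in probes and 0.23 with human control probes. The number of calls also depended on single arrays and was 31 without DMSO replicate 1, 14 without DMSO replicate 2, 28 without either gefitinib array and 20 without replicate 2 of both drugs.

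Among called miRNAs detected on all 4 arrays, the deepest falls were in miR-100-3p, miR-503-5p, miR-29b-1-5p and miR-431-3p, and 6 of the 10 deepest were passenger arms from the list described below. The signal of miR-100-3p was 37.8 and 48.2 on the DMSO arrays and 4.06 and 3.76 on the arrays with both drugs, a log2 fold change of -3.45 ± 0.31 (SE, limma adjusted p = 0.00234). The signal of miR-29b-1-5p was 19.9 and 25.8 with DMSO and 3.90 and 4.79 with both drugs, a log2 fold change of -2.39 ± 0.24 (limma adjusted p = 0.00328). In both, the gap between the treatments was several times wider than the gap between replicates. The signal of miR-431-3p, from a hairpin in the imprinted region that holds RTL1 on chromosome 14, was 18.6 and 14.8 with DMSO and 5.05 and 3.05 with both drugs, a log2 fold change of -2.08 ± 0.33 (limma adjusted p = 0.0158). The log2 fold changes of the other 6 were -1.74 for miR-15b-3p, -1.67 for miR-182-3p, -1.48 for miR-339-3p, -1.33 for miR-30e-3p, -1.19 for miR-16-2-3p and -1.08 for miR-4482-3p. The calls of miR-100-3p and miR-29b-1-5p held without each of the 8 arrays in turn. Both were lost without a detection filter and with the t-test of the study's methods after adjustment. The calls of miR-431-3p and miR-339-3p were lost without either DMSO array, either gefitinib array or replicate 2 of both drugs, with adjusted p up to 0.0955 and 0.164 in limma. That of miR-4482-3p was lost without any 1 of those arrays or of replicate 1 of both drugs, with limma adjusted p up to 0.174. Those of miR-15b-3p, miR-30e-3p and miR-16-2-3p were lost without DMSO replicate 2 or replicate 2 of both drugs, and that of miR-182-3p without DMSO replicate 2, with limma adjusted p up to 0.0639. With quantile normalization those of miR-15b-3p, miR-30e-3p, miR-16-2-3p, miR-339-3p and miR-4482-3p were lost too. Those of miR-339-3p and miR-4482-3p were also lost with human small-RNA control probes, with spike-in probes and without scaling. That of miR-431-3p was lost without scaling as well. With normexp correction plus quantile normalization miR-15b-3p and miR-30e-3p had log2 fold changes of only -0.07 and were not called, and with spike-in probes the call of miR-16-2-3p was lost.

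Passenger arms were collected in a list of 86 arms, of which 81 were on the array and 32 were tested. The rest, 49 arms, were not detected on both arrays of any treatment. Of the 32 tested, 16 fell, beside 6.04% of all miRNAs tested, and none rose (0 arms). Both arrays with both drugs lay below both DMSO arrays for 28 of them, beside 33.3% of all miRNAs tested. The median log2 fold change of the 32 was -1.07, beside -0.16 over all 480 miRNAs. Some of these arms could pass the detection filter through the DMSO arrays alone. The 17 arms detected on all 4 arrays had a median of -0.99, and 9 of them fell. The count of 16 was 6 without DMSO replicate 2, 8 without replicate 2 of both drugs, 8 with quantile normalization, 10 with spike-in probes, 9 with normexp correction plus quantile normalization and 4 without a detection filter. No passenger arm was called higher under any of the alternatives (0 arms).

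Arms that were detected on both DMSO arrays and on no array with both drugs had only a bound for their fall, which set the mean log2 signal of the brighter treatment against the lowest signal detected on each array of the other. The signal of let-7a-3p was 4.26 and 4.28 with DMSO and was not detected on either array with both drugs, so it was at least 6.19-fold lower (limma adjusted p = 0.00116). The signal of miR-181a-3p was 3.65 and 3.97 with DMSO and not detected with both drugs, at least 5.52-fold lower (limma adjusted p = 0.00515). The signal of miR-222-5p was 3.62 and 3.53 with DMSO and not detected with both drugs, at least 5.18-fold lower (limma adjusted p = 0.00142). These signals lay close to the detection limit of the arrays, and a miRNA that is undetected on both arrays has no measured spread there, which makes its p-value too small. The arm let-7e-3p, with 2.08 and 2.46 with DMSO, was at least 3.27-fold lower (limma adjusted p = 0.00134), and miR-4710, with 4.24 and 2.27, was at least 4.50-fold lower (limma adjusted p = 0.0383). The calls of let-7a-3p, miR-222-5p and let-7e-3p held without each array in turn, and that of let-7e-3p was lost with normexp correction plus quantile normalization. Since their arrays with both drugs stand at the floor with no spread, a held call does not show that these are stable. That of miR-181a-3p was lost without DMSO replicate 2, with a limma adjusted p of 0.0639, and that of miR-4710 without any 1 of the DMSO, gefitinib or combination arrays, with limma adjusted p up to 0.179.

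**Figure D1:**
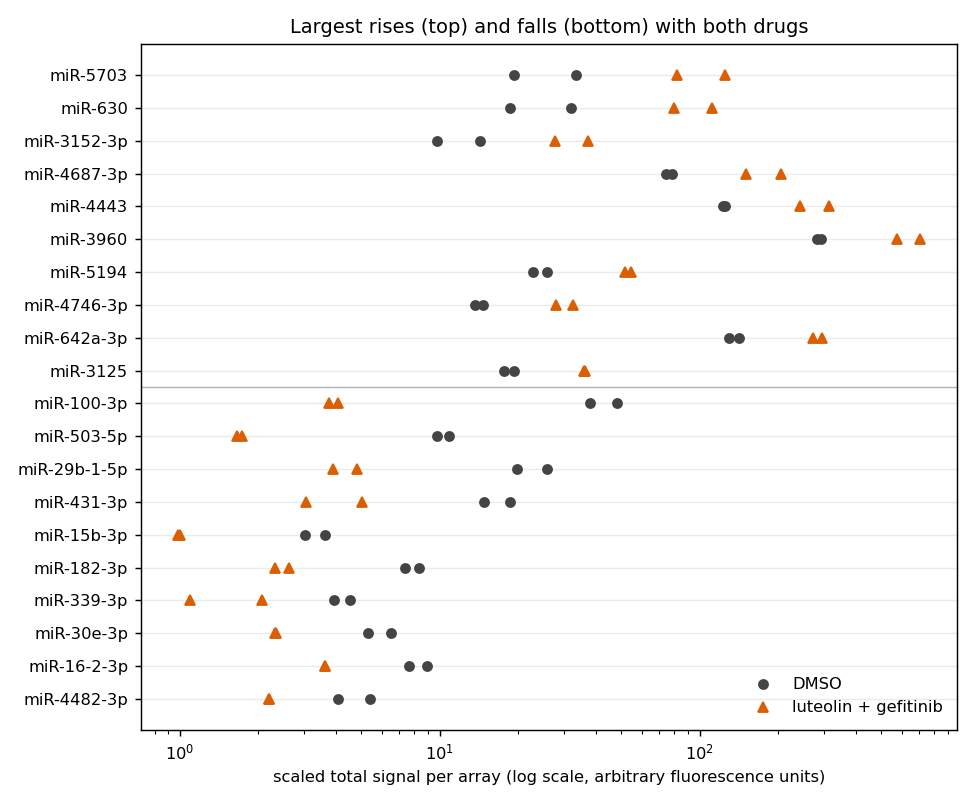
Scaled total signal on each array (horizontal log axis, arbitrary units) of the called miRNAs with the 10 largest rises and the 10 largest falls, all of them detected on each of the 4 arrays, with circles for the 2 DMSO arrays and triangles for the 2 arrays with both drugs. The circles and triangles of each miRNA do not overlap, and miR-100-3p, from 37.8 and 48.2 to 4.06 and 3.76, has the widest gap.

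The passenger arms were next grouped by their mean signal over the 8 arrays. This mean includes the arrays on which arms fell, so a fall itself moves an arm toward the dim groups. Of 18 listed arms with a mean signal under 3, 9 fell, and of 120 other miRNAs in the same range 8 fell (6.67%) and 8 rose. Among these, the 33 numbered under 570, with let-7, were closer to the arms, with 4 that fell (12.1%), 0 that rose and a median log2 fold change of -0.64, beside -1.21 for the 18 arms. Of 7 arms between 3 and 10, 4 fell, and of 100 other miRNAs 3 fell and 3 rose. Of 5 arms between 10 and 30, 2 fell, and of 76 other miRNAs 1 fell and 7 rose. The single arm between 30 and 100 was miR-21-3p, the passenger of the abundant oncogenic miR-21-5p, which is named here because of its signal. Its signal was 99.4 and 94.2 with DMSO and 54.7 and 42.1 with both drugs, a log2 fold change of -1.01 ± 0.21 (limma adjusted p = 0.0327). The guide miR-21-5p had signals of 3401 and 4695 with DMSO and 3608 and 4001 with both drugs, which overlapped. The single arm over 100 was miR-31-3p, with 133 on the lower DMSO array and 102 and 113 with both drugs, and it was not called. The median log2 fold change of the dim miRNAs outside the list was -0.46 under 3 and -0.19 between 3 and 10, so low signals as a whole lay below 0 too. The part of the signal level in the result was not tested.

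**Figure D2:**
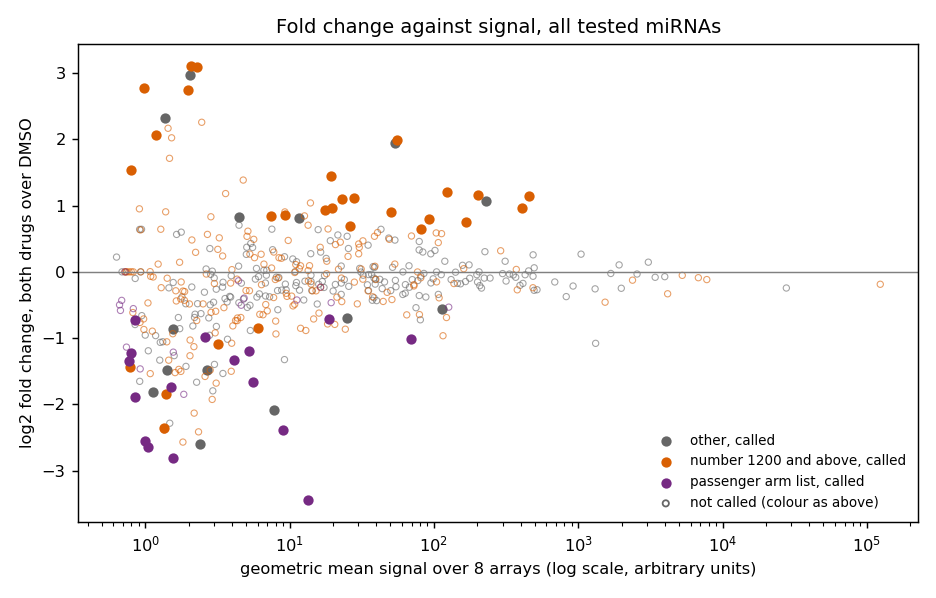
Log2 fold change of both drugs over DMSO (vertical axis) against the geometric mean signal over the 8 arrays (horizontal log axis, arbitrary units) for the 480 tested miRNAs, with filled points for called miRNAs. The called passenger arms (purple) all lie below 0, from -3.45 upward, whereas the called miRNAs numbered 1200 and above (orange) lie mostly above 0, with 23 higher and 5 lower.

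To compare the arms directly, the log2 signal of the 3p arm was subtracted from that of the 5p arm on each array, and this difference was tested between treatments. A scale factor of the array cancels out for arms above the floor of 0.609 to which low signals were raised, but not for an arm at that floor. Of 63 pairs of arms of the same miRNA with both arms tested, 18 changed in the balance of their arms (28.6%), 13 toward the 5p arm (20.6%) and 5 toward the 3p arm (7.94%). No pair had calls for both arms (0 pairs), 20 had a call for 1 arm and 43 for neither. Among the 36 pairs with both arms detected on all 4 arrays, 8 changed.

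In 32 of the 63 pairs exactly 1 arm was on the passenger list, and 15 of these changed in arm balance (46.9%), each with the passenger lower relative to the guide. The median log2 fold change was -0.08 for the guides, with a range from -0.34 to 0.51, and -1.07 for the passengers, with a range from -3.45 to 0.00, where passengers that were not detected stand at the floor. None of the 32 guides changed with the scaling used here (0 guides), and the passenger lay below its guide in 30 of 32 pairs. Some guides were called in other settings. With human small-RNA control probes miR-222-3p, miR-181a-5p and miR-30d-5p were called higher. With normexp correction plus quantile normalization miR-19b-3p, miR-29c-3p and miR-125a-5p were called lower. Among the 17 pairs with both arms detected on all 4 arrays, 7 changed. The list was written when earlier results of these data were known, so its direction is a description and no independent evidence. The guides let-7a-5p, let-7f-5p, miR-16-5p, miR-19b-3p, miR-29b-3p, miR-30c-5p and miR-181a-5p are made from more hairpins than the passenger paired with them, so that their differences are not the balance of a single hairpin. The other 31 pairs held 3 changes (9.68%), in miR-501, miR-629 and miR-769.

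Differences are given here as guide minus passenger, whichever of the arms is 5p. The guide miR-100-5p, which belongs to a family known to restrain the growth kinase mTOR, had signals of 2983 and 4054 with DMSO and 3255 and 3317 with both drugs. These overlapped, while the signals of its passenger fell 10.9-fold, and the guide rose by 3.37 relative to the passenger on the log2 scale (95% confidence interval 2.42 to 4.31, limma adjusted p = 0.00136). The guide miR-222-3p, known to repress the cell cycle inhibitor p27, had signals of 314 and 309 with DMSO and 328 and 369 with both drugs. The difference between its arms was called (limma adjusted p = 0.000472), but its passenger was undetected with both drugs and stood at the floor there, so its size has only a bound, and the call was lost with normexp correction plus quantile normalization. The guide miR-29b-3p, known to repress collagen mRNAs, had signals of 1293 and 1769 with DMSO and 1154 and 1389 with both drugs, which overlapped. Its difference from its passenger was 2.13 (95% confidence interval 1.60 to 2.66, limma adjusted p = 0.00123), a call that was lost with normexp correction plus quantile normalization and with log2 of the signal plus 16. With both arms detected on all 4 arrays, the difference was 1.67 for miR-182, 1.65 for miR-15b and 1.04 for miR-16-2, and the smallest that passed was 0.85 for miR-20a (95% confidence interval 0.28 to 1.42). The calls of miR-182, miR-15b, miR-16-2 and miR-20a were lost with normexp correction plus quantile normalization and with log2 of the signal plus 16. Only 2 and 5 arm differences passed in those settings. The differences of let-7a, miR-181a and let-7e were called too, with passengers at the floor on both arrays with both drugs, and are given no size for that reason. These 3 calls were lost with normexp correction plus quantile normalization, those of let-7a and let-7e also with log2 of the signal plus 16, and that of let-7a also without a detection filter. Among the pairs that did not pass, the arm difference of miR-29a was 0.15 with an interval from -0.32 to 0.62, and that of miR-221 was 0.19 with an interval from -0.51 to 0.89.

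**Figure D3:**
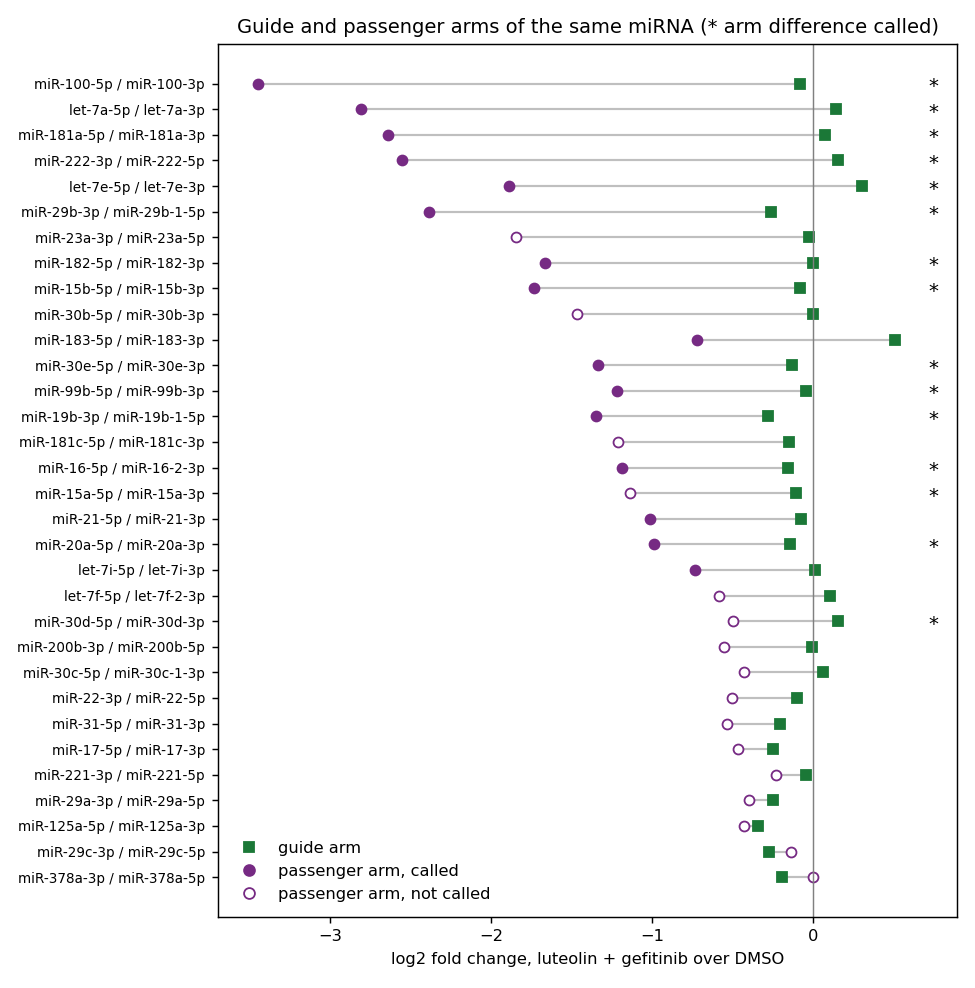
Log2 fold change of both drugs over DMSO (horizontal axis) for the guide arm (square) and the passenger arm (circle, filled where called) of 32 pairs, sorted by the difference between the arms, with an asterisk where that difference was called (15 pairs) and with arms that were not detected drawn at the floor. The guides stay between -0.34 and 0.51, whereas the passengers reach down to -3.45.

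The 3 called pairs without a listed passenger behaved differently from one another. In miR-501, from the X-linked cluster around CLCN5, the 5p arm rose from 4.09 and 3.71 to 6.60 and 7.18, while the 3p arm had 3.23 and 2.31 with DMSO and 1.60 and 1.92 with both drugs, and the difference of 5p minus 3p was 1.46 (limma adjusted p = 0.00321). The call of the 5p arm itself was lost without DMSO replicate 2, without replicate 2 of both drugs, without scaling, without a filter and with only the 4 arrays fitted, with limma adjusted p up to 0.161. In miR-629, inside TLE3, the 3p arm was detected on both arrays with both drugs and on no DMSO array, while the 5p arm showed overlapping signals near the detection limit, and the call of its arm difference was lost without a filter and with normexp correction plus quantile normalization. In miR-769, neither arm was called on its own, and its arm difference (limma adjusted p = 0.0315), with a 3p arm undetected on both DMSO arrays, was lost under 13 of 22 alternatives, among them those without DMSO replicate 1, either gefitinib array or either combination array.

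The guide arms of the large families moved little. The 18 guide arm lists and the miR-320 family held 84 miRNAs on the array, 77 of them tested, with 1 call (1.3%, beside 12.1% of all tested miRNAs), a median log2 fold change of -0.07, and 73 within 0.5 of 0. The 4 beyond 0.5 were miR-503-5p, which fell, and miR-148a-3p, miR-183-5p and miR-205-5p, which were not called and whose arrays overlapped. A p-value that misses the threshold does not show that these guides were the same in both treatments. For miR-100-5p the 95% confidence interval of the log2 fold change was -0.63 to 0.46, and for let-7a-5p it was -0.69 to 0.99. The count of 1 call depended on the processing. With human small-RNA control probes miR-30d-5p, miR-181a-5p, miR-222-3p and all 5 members of the miR-320 family were called higher. With normexp correction plus quantile normalization miR-19b-3p, miR-26a-5p, miR-29c-3p and miR-125a-5p were called lower, and 1 let-7 and 1 miR-320 member higher. The call of miR-503-5p held in both settings.

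The let-7 family, known to repress RAS and HMGA2 mRNAs, had 9 members tested with 0 calls, and its log2 fold changes ranged from -0.03 to 0.30 with a median of 0.10. All 9 had overlapping arrays, as in let-7a-5p with 2296 and 3660 with DMSO and 2946 and 3493 with both drugs. The median of the let-7/miR-98 guide arms turned to -0.22 without DMSO replicate 1, was 0.44 without DMSO replicate 2 and 0.52 with human control probes, and 1 member was called higher with normexp correction plus quantile normalization. The 3 tested guides of the miR-29 family had a median of -0.26 and the 5 of the miR-30 family a median of 0.00, each with 0 calls. The guides miR-18a-5p and miR-18b-5p and the miR-19 guides, from the miR-17-92 cluster and its relative, had a median of -0.35 over 4 members with 0 calls. The guides of miR-17, miR-20, miR-93 and miR-106, which share the seed AAAGUGC, had a median of -0.15 over 5 members with 0 calls. The miR-23, miR-24 and miR-27 guides had a median of -0.21 over 5 members with 0 calls. With human control probes the medians of these 5 groups of guides all turned positive, between 0.07 and 0.42, and that of the miR-17 group was 0.07 without DMSO replicate 2, so the directions of families this close to 0 are not settled.

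The 5 members of the miR-320 family, named after a miRNA that is made without Drosha, were higher on both arrays with both drugs than on both DMSO arrays, as were 20.4% of all miRNAs tested, and none was called (0 of 5). For miR-320c the signal was 61.3 and 66.1 with DMSO and 78.3 and 97.8 with both drugs, a log2 fold change of 0.46 ± 0.17 (limma adjusted p = 0.177). The other 4 ranged from 0.27 to 0.33, and the median of the family was 0.32. All 5 were called higher when arrays were scaled to the human small-RNA control probes, and 1 was with normexp correction plus quantile normalization. The miR-200 family, which keeps epithelial cells epithelial by repressing ZEB factors, had 3 members tested here, miR-200a-3p, miR-200b-3p and miR-429, and all 3 overlapped between treatments.

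The cluster of miR-424, miR-503, miR-542 and miR-450 on the X chromosome encodes miRNAs that restrain cyclins and other cell cycle genes, and 6 of its 9 members were tested. The signal of miR-503-5p was 9.78 and 10.8 with DMSO and 1.65 and 1.74 with both drugs, a log2 fold change of -2.60 ± 0.17 (limma adjusted p = 0.00116). Its hairpin lies at chrX:134546328-134546398 on the minus strand inside MIR503HG. With luteolin alone its signal was 1.11 and 1.45 and with gefitinib alone 1.52 and 1.51, so that all 6 drug-treated arrays lay under 2. Its call held without each array in turn and was lost with quantile normalization (limma adjusted p = 0.0553). Its neighbours miR-424-5p, miR-450a-5p and miR-542-3p were lower on both arrays with both drugs, with log2 fold changes of -0.38, -0.38 and -0.46, and were not called. The median of the 6 tested members was -0.42. With human small-RNA control probes it was -0.0013, with 3 of the 6 above 0, so the direction of the neighbours is not settled. For miR-542-3p the signal was 3.72 and 4.04 with DMSO and 2.93 and 2.72 with both drugs (limma adjusted p = 0.0938). Those of miR-424-3p and miR-542-5p overlapped. The guides miR-15a-5p and miR-16-5p, with the seed AGCAGCA, overlapped as well, with log2 fold changes of -0.10 and -0.15.

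**Figure D4:**
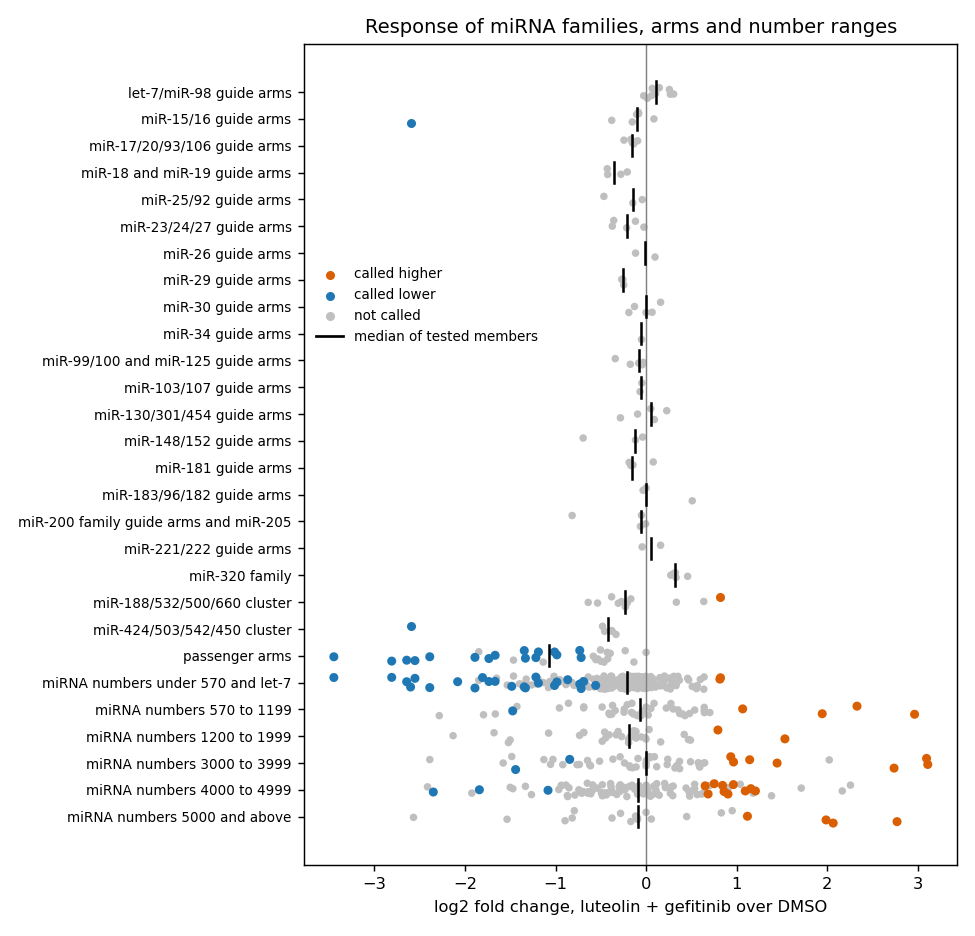
Log2 fold change of both drugs over DMSO (horizontal axis) of the tested members of each guide family, of the miR-320 family, of clusters, of the passenger arms and of ranges of miRNA numbers, with a black line at each median. The passenger arms have a median of -1.07 and 16 called lower, and the guide families lie near 0 with 1 call, miR-503-5p.

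Of the 29 miRNAs that rose, 23 were numbered 1200 and above, a range that entered the registry late and in which few members have a well known function. They were 23 of 217 tested (10.6%), beside 6.04% of all miRNAs tested, and 5 of the 217 fell. Of 47 miRNAs numbered 570 to below 1200, 4 rose (8.51%) and 1 fell, and this range holds miR-630, miR-642a-3p and miR-629-3p. Of 216 miRNAs numbered under 570, with let-7, 2 rose (0.926%) and 23 fell (10.6%), beside 6.04% of all miRNAs tested that fell. The 16 listed passenger arms that fell are all among these 23, so this is largely the same result as that of the passenger arms. The 2 that rose were miR-501-5p and miR-150-3p, named after their values were seen. Within the late range, 2 of 33 miRNAs from 1200 to below 2000 rose (6.06%), as did 7 of 51 in the 3000s (13.7%), 10 of 110 in the 4000s (9.09%) and 4 of 20 from 5000 upward. The medians were -0.11 for 1200 and above, -0.07 for 570 to below 1200 and -0.21 under 570. The 23 rises of the late range were 8 without DMSO replicate 1 and 3 without DMSO replicate 2, and the 23 falls under 570 were 8 without DMSO replicate 2. With human small-RNA control probes, 17 miRNAs numbered under 570 rose and 16 fell, 50 of the late range rose and 3 fell, and the medians turned to 0.20 and 0.24. With normexp correction plus quantile normalization the median of the late range was 0.01.

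The largest rises among called miRNAs detected on all 4 arrays were those of miR-5703 and miR-630, followed by miR-3152-3p, miR-4687-3p, miR-4443, miR-3960, miR-5194, miR-4746-3p, miR-642a-3p and miR-3125. The signal of miR-630, a miRNA linked to the DNA damage response, was 32.0 and 18.6 with DMSO and 79.4 and 111 with both drugs, a log2 fold change of 1.95 ± 0.36 (limma adjusted p = 0.0265). The signal of miR-5703 was 33.5 and 19.4 with DMSO and 81.9 and 125 with both drugs, a log2 fold change of 1.99 ± 0.38 (limma adjusted p = 0.0268). The replicates of both differed widely, but in each case the lowest value with both drugs was over the highest with DMSO. The ratio of miR-630 to miR-5703 ranged from 0.891 to 1.06 over the 8 arrays. Only these 2 of 2370 mature sequences searched in RefSeq end with the 8 bases that they share, and whether a probe of one detects the other was not tested. Neither miR-630 nor miR-5703 was called without a detection filter or with only the 4 compared arrays in the fit. By the t-test of the study's methods, adjusted or with its fold rule, neither passed. The calls of miR-630 and miR-5703 were both lost without DMSO replicate 2, either gefitinib array or either combination array, with limma adjusted p up to 0.143 and 0.145, and that of miR-5703 also without DMSO replicate 1.

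The signal of miR-3960 was 292 and 283 with DMSO and 572 and 706 with both drugs, a log2 fold change of 1.14 ± 0.19 (limma adjusted p = 0.0180). The signal of miR-4687-3p, whose hairpin lies inside STIM1, was 78.3 and 74.2 with DMSO and 151 and 206 with both drugs, a log2 fold change of 1.21 ± 0.19 (limma adjusted p = 0.0158). The signal of miR-4443 was 123 and 125 with DMSO and 244 and 315 with both drugs, a log2 fold change of 1.16 ± 0.17 (limma adjusted p = 0.0113). In these 3 the DMSO replicates lay close together and the 2 arrays with both drugs were further apart. The remaining 5 rose between 0.97 and 1.45 on the log2 scale. The calls of miR-3960 and miR-4687-3p were lost without either DMSO array, either gefitinib array or replicate 2 of both drugs, and that of miR-4443 without either DMSO array, with limma adjusted p up to 0.0955. Those of miR-642a-3p and miR-3152-3p were lost without any 1 of the DMSO, gefitinib or combination arrays, and those of miR-5194, miR-4746-3p and miR-3125 without DMSO replicate 2 or replicate 2 of both drugs.

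The sequences of 3 of these, and of miR-5587-5p from the group described next, are shown as examples of late-numbered miRNAs that rose, with the seed in capitals as before.
miR-4687-3p: uGGCUGUUggagggggcaggc
miR-4443: uUGGAGGCguggguuuu
miR-4746-3p: aGCGGUGCuccugcgggccga
miR-5587-5p: aUGGUCACcuccgggacu
They share no seed, and runs of G recur in some of them. Of 480 tested miRNAs, 395 matched a RefSeq sequence by name. Only 75.9% of the miRNAs that rose had a sequence, so base composition was compared among miRNAs detected on all 4 arrays, with sequences for 81.0% of the 21 that rose, 88.2% of the 17 that fell and 83.1% of all 372. In these, a run GGGG, searched on the mature strand only, occurred in 9 of 17 that rose, in 1 of 15 that fell, miR-4482-3p, and in 56 of all 309 (18.1%). Their median GC content was 55.6% for rises and 45.5% for falls, beside 52.4% for all 309. Across the 309 miRNAs, which share arrays and are not independent, GC content and log2 fold change had a Pearson r of 0.24 and a Spearman rho of 0.17. Over the 395 with a sequence, the median log2 fold change was 0.28 in the bin of at least 70% GC, -0.33 at 60 to 70%, -0.29 at 50 to 60%, -0.15 at 40 to 50% and -0.20 under 40%, so only the top bin lay above 0. The part of base composition in the rises was not tested.

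A further group was detected on both arrays with both drugs and on no DMSO array. The signal of miR-5587-5p was 4.40 and 3.93 with both drugs, at least 5.80-fold higher than with DMSO (limma adjusted p = 0.000505), and this call held without each array in turn. The signal of miR-3667-5p was 4.29 and 6.45, at least 7.34-fold higher (limma adjusted p = 0.0370), and that of miR-3610 was 5.22 and 5.21, at least 7.27-fold higher (limma adjusted p = 0.0342). The signal of miR-629-3p was 4.43 and 5.11, at least 6.63-fold higher (limma adjusted p = 0.00905), and that of miR-3617-5p was 3.78 and 4.38, at least 5.67-fold higher (limma adjusted p = 0.00234). All 5 had signals near the detection limit. Their DMSO arrays stand at the floor with no spread, which makes these p-values too small. A call that holds without each array in turn is therefore not shown to be stable. Only the arrays with both drugs brought miR-5587-5p through the detection filter. The calls of miR-3667-5p and miR-3610 were lost without any 1 of the DMSO, gefitinib or combination arrays, that of miR-3667-5p also with the replicate number as a block, and that of miR-629-3p without either DMSO array or replicate 2 of both drugs, whereas that of miR-3617-5p held without each array.

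Comparison with the single drugs asked which levels differed when the second drug was present. Both drugs together differed from luteolin alone in 9 of 480 miRNAs (1.88%), 6 higher (1.25%) and 3 lower (0.625%), and from gefitinib alone in 22 (4.58%), 5 higher (1.04%) and 17 lower (3.54%). These comparisons use the same 2 arrays with both drugs as the comparison with DMSO and are not independent of it. The 3 lower than with luteolin were let-7a-3p, miR-4451 and miR-873-5p, of which the last pair was named after the values were seen.

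Undetected on all 6 other arrays, miR-5587-5p was detected with both drugs only, and it differed from luteolin and from gefitinib alone with a limma adjusted p of 0.000505 each. It passed the filter through the arrays with both drugs alone, and the 6 others stand at the floor with no spread, so these p-values are too small. The signal of miR-3125 was 19.3 and 17.6 with DMSO, 15.4 and 13.6 with luteolin, 14.5 and 16.1 with gefitinib and 36.3 and 35.8 with both. The signal of miR-5194 was 26.0 and 22.9 with DMSO, 25.2 and 19.8 with luteolin, 20.2 and 21.8 with gefitinib and 51.8 and 54.3 with both. For both miRNAs the arrays with both drugs lay above all 6 others, and the single drugs lay close to DMSO. The log2 difference from luteolin was 1.31 for miR-3125 (limma adjusted p = 0.0144) and 1.25 for miR-5194 (limma adjusted p = 0.0279). From gefitinib it was 1.24 (limma adjusted p = 0.00778) and 1.34 (limma adjusted p = 0.00974). No difference from either single drug was called for miR-630, miR-5703, miR-3152-3p, miR-4687-3p, miR-4443, miR-3960, miR-4746-3p and miR-642a-3p. With gefitinib alone the signal was 112 and 121 for miR-630, 300 and 314 for miR-4443 and 419 and 411 for miR-642a-3p. For miR-3152-3p it was 17.6 and 18.0, below both arrays with both drugs (27.7 and 37.3).

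Among the listed passenger arms, let-7a-3p, miR-30e-3p, miR-100-3p and miR-182-3p were lower with both drugs than with gefitinib alone. The signal of let-7a-3p was 1.75 and 1.34 with luteolin and 1.62 and 1.43 with gefitinib, between the DMSO values and the undetected state with both drugs, with limma adjusted p of 0.0279 against luteolin and 0.0101 against gefitinib. The signal of miR-30e-3p was 3.90 and 4.91 with luteolin, 4.90 and 4.88 with gefitinib and 2.32 and 2.35 with both, which was lower than gefitinib by -1.07 on the log2 scale (limma adjusted p = 0.0292) and not called against luteolin (limma adjusted p = 0.0823). The signal of miR-100-3p was 15.2 and 10.0 with luteolin and 19.7 and 12.5 with gefitinib, and its log2 difference was -2.0 from gefitinib (limma adjusted p = 0.0215) and -1.66 from luteolin (limma adjusted p = 0.0766). The order of miR-182-3p was different, since gefitinib alone gave 12.9 and 12.6, above DMSO with 7.37 and 8.32, while both drugs gave 2.32 and 2.62 and luteolin alone 4.64 and 3.31. Its log2 difference between both drugs and gefitinib was -2.37 (limma adjusted p = 0.00305), and that from luteolin was -0.67 (limma adjusted p = 0.202). For miR-29b-1-5p, miR-15b-3p, miR-16-2-3p, miR-181a-3p, miR-222-5p and let-7e-3p neither difference was called, which does not show equal levels. Each of these arms was lower on every array with a single drug than on both DMSO arrays. The signal of miR-15b-3p was 3.03 and 3.62 with DMSO, 1.21 and 1.59 with luteolin and 1.33 and 1.04 with gefitinib. The arm let-7e-3p was undetected with either drug alone too.

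**Figure D5:**
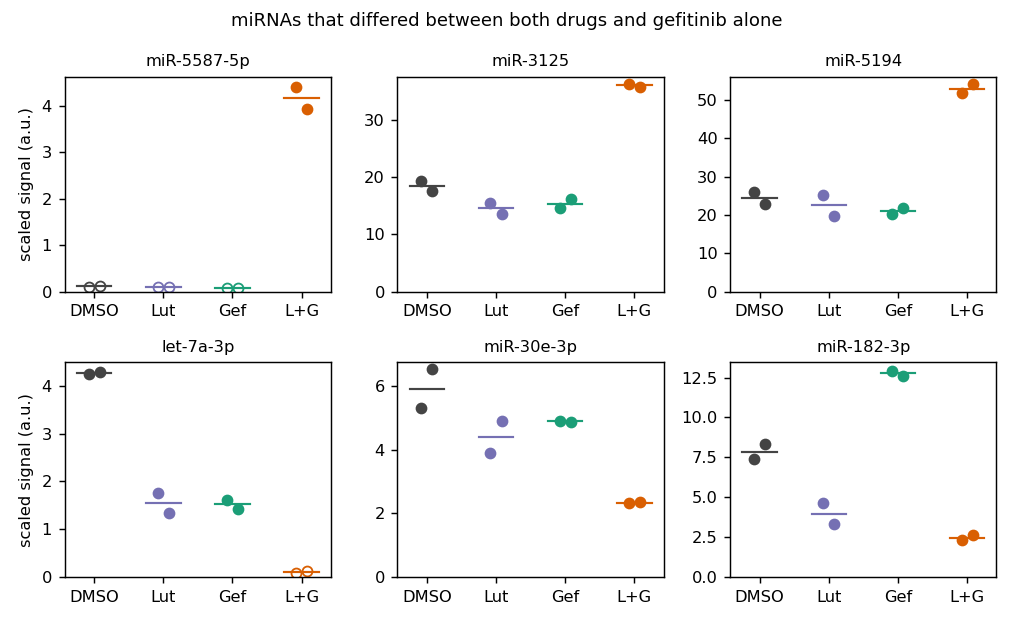
Scaled signal per array (points, vertical axis in arbitrary units starting at 0) and mean (line) of 6 miRNAs with DMSO, luteolin (Lut), gefitinib (Gef) and both drugs (L+G), with open points where a miRNA was not detected on both arrays of a treatment. In the upper row miR-5587-5p, miR-3125 and miR-5194 are highest with both drugs, and in the lower row let-7a-3p, miR-30e-3p and miR-182-3p are lowest with both drugs.

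The probes of each miRNA were compared within the arrays. The 30 miRNAs named by size of change were measured by 82 probes, and 81 probes moved in the direction of the total signal, with miR-339-3p as the exception. The total is the sum of these probes and the miRNAs were chosen by it, so this agreement is no independent check. For 75 of the probes the arrays of both treatments did not overlap. Probes with overlap were found in miR-15b-3p, miR-339-3p, let-7a-3p, miR-222-5p and let-7e-3p. Markers of other cells were looked for as well. Of 8 blood cell miRNAs, among them miR-451a, miR-223-3p and miR-142-3p, 0 passed the detection filter, and of 7 miRNAs of muscle, liver and neurons 1 did, miR-9-5p, whose arrays overlapped between treatments. Of 6 epithelial markers 4 were tested and 0 changed, while miR-200c-3p and miR-141-3p were not detected on both arrays of any treatment. In cultures of this kind, fewer cells of a type and less RNA per cell cannot be told apart, and every array received the same mass of total RNA per the labels.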

How the data were processed

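Total RNA of PC-3 cells was labelled with Cy3 and hybridised to 1-colour miRNA arrays, and the authors extracted each array with Agilent Feature Extraction, version 10.7.3.1 per the file headers. The deposited values are linear signal intensities with the background subtracted and no scaling between arrays, and the total per miRNA is set to 0.1 where it is not detected. A second table of the series holds the same intensities per spot, within 0.5% for 100% of the spots. The labels gave the treatment of all 8 arrays.

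Here the total per miRNA was divided by the 75th percentile over the 365 miRNAs detected everywhere, raised to a floor of 0.609 (the median of the arrays' lowest detected signals) and log2 transformed. The 4 treatments were fitted together with limma 3.58.1 (lmFit and eBayes, R 4.3.3), with 4 residual degrees of freedom and two-sided p-values adjusted over 480 miRNAs or 63 arm pairs. Since an exact permutation test with 2 arrays on either side cannot give less than 0.333, none was run. The script was tested on simulated data. Lists, arms and figures were handled in Python 3.11.15 with pandas 2.3.3 and matplotlib 3.10.9.

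Named miRNAs are the pair that the study singled out (miR-5703, miR-630), the calls with the 10 deepest falls and 10 highest rises among those detected on all 4 arrays without overlap, up to 5 per direction detected in 1 treatment only, up to 4 per list, called ones first, and up to 5 arm pairs per direction with the lowest p. The comparison, its lists and the passenger arms were chosen with earlier results of these data known. Alternatives covered the scaling, the signal column, the background, the filter, the floor, the arrays fitted, the methods' t-test, a replicate block and leaving out each array. Sequences and positions are from RefSeq tables of GRCh38.p14, and names not matched there carry no sequence.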

Additional observations from a re-analysis of the deposited data

How the results depend on the processing

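The precision rests on 2 arrays per treatment and, for dim miRNAs, on signals close to the detection limit. The 58 calls and the 18 called arm differences depended on the processing as follows, and the cause was not tested unless the setting itself shows it. Without scaling there were 30 calls, with human small-RNA control probes 99, and with the mean signal per spot 82. With only the 372 miRNAs detected on all 4 arrays there were 38 calls and 8 arm differences, of fewer tested. Without a filter there were 12 calls among 1887 miRNAs, a setting in which most of the spreads were 0. Fitting only the 4 arrays compared gave 31 calls, and the methods' t-test gave 13 after adjustment and 44 by its own threshold with the fold rule, of 86 unadjusted. Leaving out 1 array gave 14 to 73 calls and 12 to 24 arm differences. Of the 30 miRNAs named by size of change, 8 kept their call without each of the 8 arrays, and 22 lost it without DMSO replicate 2. Among those that kept it, miR-5587-5p, miR-3617-5p, let-7a-3p, miR-222-5p and let-7e-3p were undetected with DMSO or with both drugs. Arrays at the floor have no spread, so a kept call does not show that these are stable. Arm differences were 13 with quantile normalization alone and fell to 2 with normexp correction plus quantile normalization and to 5 with log2 of the signal plus 16. The arm difference of miR-19b-1-5p and miR-19b-3p, as 5p minus 3p, -1.07 with the 5p arm at the floor with both drugs, turned to 0.18 with normexp correction plus quantile normalization and to 0.15 with log2 of the signal plus 16, and neither was called. Alternatives were run for the arm differences of let-7a, let-7e, miR-100, miR-181a, miR-222, miR-29b-1, miR-501, miR-629 and miR-769 and for the 30 miRNAs, and these kept their direction under each. The remaining settings gave 41 to 82 calls. With the replicate number as a block there were 62 calls, 56 of them shared with the fit without it, and 24 arm differences, and miR-3667-5p lost its call, while the correlation of same-numbered deviations was 0.908 for DMSO and luteolin, 0.409 for DMSO and both drugs and -0.135 for DMSO and gefitinib, so the numbers do not pair the samples throughout.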
